A study of Mus musculus with 3 samples.

Results

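The genes described here are 10 genes of type 2 cytokine signaling and of the receptor for IgE in splenic B cells, namely Il4ra, Il2rg, Il21r, Il5ra, Fcer2a, Stat6, Il4i1, Il4, Socs1 and Socs3. They were taken by gene name, from a choice made with earlier results of these data known. Each name matched 1 row of the 27088 genes in the table. The series concerns the peptide SJMHE1, which comes from the blood fluke Schistosoma japonicum, in female BALB/c mice with allergic rhinitis induced by ovalbumin (OVA). The labels give an age of 13 weeks. In both groups compared here, OVA (10 μg) was given with 2 mg of aluminum hydroxide on days 0, 7 and 14, and 100 μg OVA was given into the nose daily from day 21 to day 27 and again from day 29 to day 35. On days 0, 14 and 28 the PBS group was injected under the skin with PBS, for which no adjuvant is clearly stated, and the SJMHE1 group with 10 μg SJMHE1 in incomplete Freund's adjuvant. The peptide and this adjuvant cannot be told apart in the comparison. B cells were sorted from the spleen on day 36, and 3 samples of each group were mixed into 1 library. The Control group of normal mice was not analysed here.

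IL-4 and IL-13 are cytokines of allergic inflammation. On B cells, IL-4 binds the IL-4 receptor alpha chain (Il4ra) paired with the common gamma chain (Il2rg), and the Janus kinases bound to these chains phosphorylate the transcription factor STAT6 (Stat6). STAT6 then raises genes such as Fcer2a, which encodes the low-affinity IgE receptor CD23, and takes part in the class switch to IgE. The suppressors of cytokine signaling SOCS1 and SOCS3 (Socs1, Socs3) are induced by cytokines and inhibit the kinases and receptors that induced them. CD23 is abundant on follicular B cells of the spleen and low on marginal zone B cells.

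STAT factors bind short palindromic DNA elements, and the stretches before the start sites of Fcer2a, Il4, Socs3 and Socs1 are shown because these genes stand for an abundant target of STAT6, the cytokine itself and its feedback inhibitors. The sequences are those of RefSeq on GRCm38.p6, written 5′ to 3′ on the strand of the gene, without bases that lie in exons of the same gene in GENCODE M21. Capitals mark a match to TTCNNNGAA or TTCNNNNGAA, which read the same on both strands and cannot overlap each other at the same start. The Fcer2a stretch, at chr8:3690862-3691111 on the minus strand, lies within the span of the gene before 1 of its 3 listed start sites. It holds TTCNNNNGAA 168 bases before that site, counted as position -168. The stretches before the other Fcer2a start sites, including the one at the 5′ end of the gene, hold neither element and are not shown. The Il4 stretch, at chr11:53618670-53618915 on the minus strand, precedes 1 of 2 start sites and holds TTCNNNNGAA at position -167. The Socs3 stretch, at chr11:117969452-117969616 on the minus strand and also within the span of its gene, holds TTCNNNGAA at position -154. The Socs1 stretch, at chr16:10785537-10785786 on the minus strand, holds neither.
Fcer2a: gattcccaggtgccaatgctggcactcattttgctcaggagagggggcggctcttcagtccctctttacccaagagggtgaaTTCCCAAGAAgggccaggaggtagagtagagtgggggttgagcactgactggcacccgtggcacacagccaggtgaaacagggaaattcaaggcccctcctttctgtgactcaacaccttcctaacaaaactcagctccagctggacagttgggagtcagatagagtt
Il4: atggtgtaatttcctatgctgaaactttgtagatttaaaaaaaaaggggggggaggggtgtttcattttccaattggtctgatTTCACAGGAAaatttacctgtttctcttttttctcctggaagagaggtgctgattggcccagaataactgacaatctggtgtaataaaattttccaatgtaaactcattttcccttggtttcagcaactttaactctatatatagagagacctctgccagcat
Socs3: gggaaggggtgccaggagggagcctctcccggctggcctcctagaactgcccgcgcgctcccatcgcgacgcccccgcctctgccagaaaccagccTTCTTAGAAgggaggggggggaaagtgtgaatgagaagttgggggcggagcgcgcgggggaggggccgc
Socs1: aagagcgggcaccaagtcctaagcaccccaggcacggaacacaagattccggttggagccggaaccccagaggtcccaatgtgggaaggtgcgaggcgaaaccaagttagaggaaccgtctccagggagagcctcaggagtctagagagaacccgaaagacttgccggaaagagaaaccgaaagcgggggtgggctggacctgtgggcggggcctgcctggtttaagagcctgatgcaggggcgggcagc

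Start sites of all 10 genes were found in the RefSeq table, with 13 windows of 300 bases in all, each running from 250 bases before the start to 50 bases after it. A match to either element was present in 5 of these 13 windows (38.5%) and in 14.6% of all 32851 windows. Il4 matched in each of its windows, so the matching windows are not separate genes. With 13 windows in all, the share is too uncertain to read as a departure from that of all windows. TTCNNNGAA alone was present in 8.30% of all windows and TTCNNNNGAA in 6.95%. Besides the matches shown above, Il5ra held TTCNNNNGAA after its start site and a further Il4 window held TTCNNNGAA. No match was present in the windows of Il4ra, Il2rg, Il21r, Stat6, Il4i1 and Socs1 or in the other windows of Fcer2a. A match describes the letters and not binding.

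The libraries held 48267168 counts (PBS) and 51280237 counts (SJMHE1). Levels are given as FPKM, in which the authors scaled the reads of a gene to its length and to the library size, so that levels can be compared between genes. With 1 library per group there was no spread between replicates and no test. The intervals given are 95% intervals for counting error alone, exact Poisson for a level and exact Clopper-Pearson for a ratio, and reads are not independent molecules. A count of 0 allows up to 3 counts.

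The IgE receptor and the common gamma chain were the most abundant of the 10 genes, and Il4 was the least abundant. Fcer2a stood at 262 FPKM in the PBS library (44478 counts) and at 260 FPKM in the SJMHE1 library (46655 counts), which ranked it 143 and 140 among all genes of the table. Il2rg followed with 141 and 154 FPKM, and Stat6 with 52.6 and 63.2 FPKM. In the PBS library the order of the others was Il4ra, Il21r, Socs3, Il5ra, Il4i1, Socs1 and Il4, and the intervals of Il4ra and Il21r overlapped, as did those of Socs3 and Il5ra. In the SJMHE1 library the order was Il21r, Il4ra, Il4i1, Il5ra, Socs3, Socs1 and Il4, and only the neighbors Il21r and Il4ra overlapped in their intervals. Socs3 thus stood in place 6 in the PBS library and in place 8 in the SJMHE1 library. The plot of FPKM by library shows this order.

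**Figure D1:**
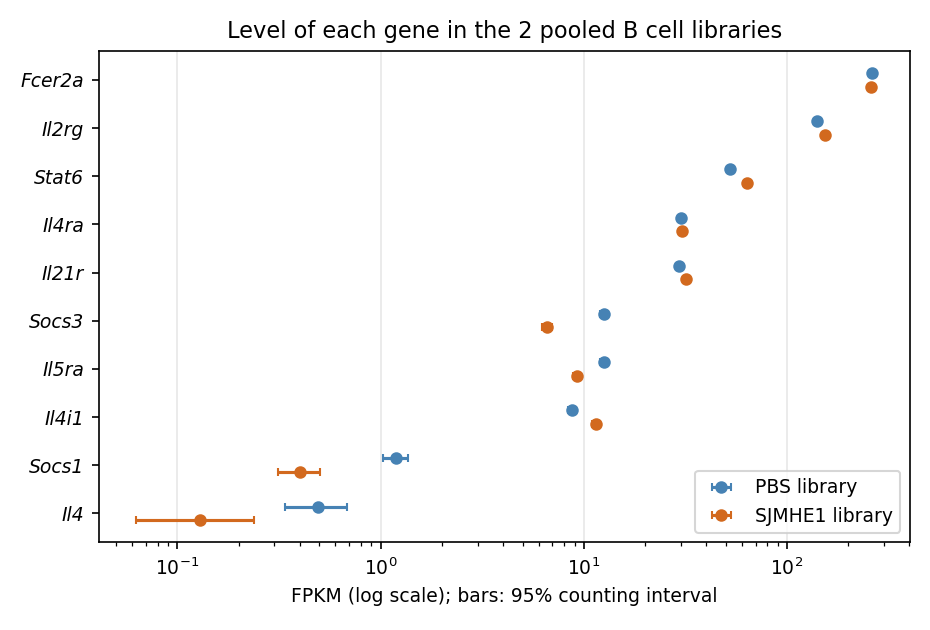
FPKM (log axis) of the 10 genes in the PBS library (blue) and the SJMHE1 library (orange), 1 library per group, with bars for the 95% counting interval. Fcer2a lies at about the same level in both libraries (262 and 260 FPKM), whereas Socs3 lies at 12.6 FPKM in the PBS library and 6.61 FPKM in the SJMHE1 library.

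Il4ra and Fcer2a were at about the same level in both libraries, and Il2rg, Il21r, Stat6 and Il4i1 were higher in the SJMHE1 library by less than the threshold. Il5ra, both SOCS genes and Il4 were lower in the SJMHE1 library. A gene was compared if it reached 1 FPKM in either library and was not at 0 in the other, which held for 9 of the 10 genes, all but Il4. A gene was called where the log2 FPKM ratio, SJMHE1 to PBS, was past 1 in either direction, a 2-fold difference. Of the 9 genes, 1 was called lower (Socs1) and 0 were called higher. Across the 12433 genes compared, 6.00% were called, 3.57% lower and 2.43% higher, and 1 gene of 9 is too few to read as a departure from this background. Socs1 entered the comparison only through the PBS library, where it was higher. Over all 10 genes the median log2 ratio was 6.9e-05, the midpoint between Fcer2a and Il4ra, and it was -0.01 over all genes compared. The ratio was above 0 for 5 genes and below 0 for 5, and the counting interval excluded 0 for 4 genes in each direction.

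**Figure D2:**
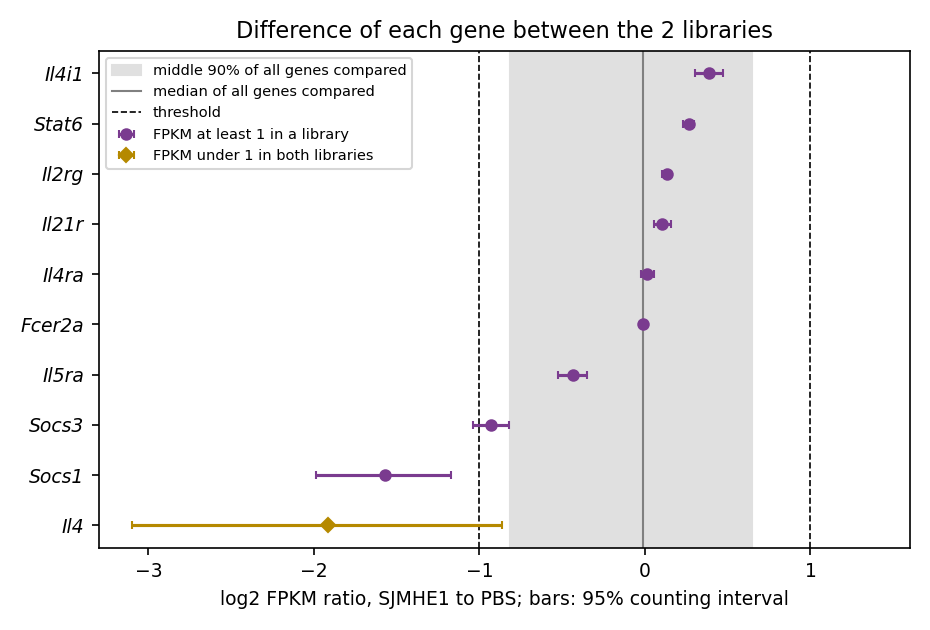
Log2 FPKM ratio, SJMHE1 to PBS, of each of the 10 genes, with bars for the 95% counting interval, the middle 90% of all 12433 genes compared in gray and the threshold as dashed lines. Socs1 and Il4 lie past the threshold, Socs3 lies just short of it at -0.93, and the 4 receptor chains and Fcer2a lie inside the gray range.

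Il4ra, the chain that binds IL-4, lies on chromosome 7 from 125552120 to 125579474. Its level was 30.2 FPKM (9961 counts) in the PBS library and 30.5 FPKM (10643 counts) in the SJMHE1 library. The log2 ratio was 0.01, with an interval from -0.03 to 0.05 that included 0. Over the scalings of the libraries it lay between 0.01 and 0.10, so whether a difference exceeded counting error depended on the scaling. Il13ra1, which pairs with Il4ra to form the receptor that also binds IL-13, stood at 1.0 and 0.94 FPKM. Il4ra was thus 30.2 times as abundant as Il13ra1 in the PBS library and 32.5 times in the SJMHE1 library. Il13ra2, a decoy receptor for IL-13, had 0 counts in both libraries.

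Il2rg, the chain shared by the receptors for IL-2, IL-4, IL-7, IL-9, IL-15 and IL-21, lies on chromosome X from 101264378 to 101268255. It was present at 141 FPKM (18423 counts) and 154 FPKM (21360 counts), a log2 ratio of 0.13 (interval 0.10 to 0.16.) Its level was 4.65 times that of Il4ra in the PBS library and 5.05 times in the SJMHE1 library. Il21r, the receptor of the follicular helper cytokine IL-21, lies 23955 bases from Il4ra on the same strand of chromosome 7. It stood at 29.5 FPKM (5383 counts) and 31.7 FPKM (6131 counts), a log2 ratio of 0.11 (interval 0.05 to 0.16.) The differences of Il2rg and Il21r exceeded counting error and were small beside those of most genes, since 62.7% and 69.1% of all genes compared differed at least as much.

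Il5ra, the chain that binds IL-5 and that is known on B-1 cells and antibody-secreting cells as well as on eosinophils, lies on chromosome 6 from 106710357 to 106749037. Its level was 12.5 FPKM (2463 counts) in the PBS library and 9.26 FPKM (1925 counts) in the SJMHE1 library. The log2 ratio was -0.44, with an interval from -0.52 to -0.35, the lowest among the 4 receptor chains and not past the threshold. Of all genes compared, 11.6% had a lower ratio. Csf2rb, the signaling chain that pairs with Il5ra, stood at 6.86 and 5.83 FPKM. Among the 5 genes of the IL-5 receptor family, all were lower in the SJMHE1 library, 1 past the threshold (3.57% of all genes compared). That gene was Csf2ra, the chain that binds GM-CSF, at 7.20 and 3.06 FPKM.

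Fcer2a, on chromosome 8 from 3681737 to 3694175, had a log2 ratio of -0.01 (interval -0.03 to 0.01.) Its sign turned under other scalings of the libraries, between -0.02 and 0.07, and a difference was not detectable. Its level was 8.67 times that of Il4ra in the PBS library and 8.51 times in the SJMHE1 library. Among the other markers of follicular B cells, Klf2, a transcription factor of resting lymphocytes, stood at 491 and 486 FPKM, while Ccr7, which guides cells toward the T cell zone, stood at 142 and 80.5 FPKM. Over the 6 follicular genes, Fcer2a included, the median log2 ratio was -0.01 and 0 were called. Over 7 marginal zone genes, the median was -0.01 and 0 were called, with 3 ratios above 0 and 4 below. Cr2, the complement receptor CD21, stood at 136 and 218 FPKM, and Plac8 at 136 and 93.5 FPKM.

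Stat6, on chromosome 10 from 127642986 to 127660957, was read 12724 times in the PBS library and 16177 times in the SJMHE1 library, at 52.6 and 63.2 FPKM. The log2 ratio was 0.26, with an interval from 0.23 to 0.30, beyond counting error and short of the threshold. Of the 7 STAT genes, 5 had a ratio above 0 and 0 were called. Stat5b, which carries signals of IL-2 and related cytokines, stood at 19.2 and 17.0 FPKM. Among the Janus kinases, 0 of 4 were called. Jak1, which binds Il4ra, stood at 87.0 and 95.5 FPKM, and Jak3, which binds Il2rg, at 35.2 and 42.4 FPKM. Jak2 stood at 28.65 and 28.85 FPKM. The log2 ratio of Jak3, 0.27 with an interval from 0.23 to 0.31, was close to that of Stat6. The RNA levels give no measure of phosphorylated STAT6.

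Socs1, an inhibitor of Janus kinases that acts on the IL-4 and interferon pathways, lies on chromosome 16 from 10782240 to 10785536. It was present at 1.19 FPKM (191 counts) in the PBS library and at 0.40 FPKM (70 counts) in the SJMHE1 library. The intervals of the 2 levels, 1.03 to 1.37 and 0.31 to 0.51 FPKM, did not overlap. The log2 ratio was -1.57, with an interval from -1.99 to -1.17, and 1.55% of all genes compared had a lower ratio. The gene was low in both libraries, and with 1 FPKM added to each level the log2 ratio was -0.65, which is short of the threshold.

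Socs3, which inhibits signaling by receptors of the IL-6 type, lies on chromosome 11 from 117966079 to 117970047. Its level was 12.6 FPKM (2001 counts) in the PBS library and 6.61 FPKM (1111 counts) in the SJMHE1 library, 1.91 times higher in the former. The log2 ratio was -0.93, and its interval from -1.04 to -0.82 included the threshold. Cish, a further inhibitor that is induced by STAT5, stood at 0.96 FPKM (339 counts) and 0.27 FPKM (103 counts), with a log2 ratio of -1.83 (interval -2.16 to -1.51.) It did not enter the comparison, since it was under 1 FPKM in both libraries.

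The ratios of the other SOCS genes differed in sign. Socs2 had 84 and 68 counts. Socs4 stood at 10.9 and 14.2 FPKM, Socs5 at 6.27 and 8.47 FPKM, Socs6 at 1.68 and 1.69 FPKM and Socs7 at 5.73 and 5.24 FPKM. Of the 8 genes of the family, 6 were compared, 1 was called lower and 0 higher, beside 3.57% and 2.43% of all genes compared. The 1 called was Socs1, which reached 1 FPKM only in the PBS library and could be called only lower. The median log2 ratio over all 8, including Socs2 and Cish that were not compared, was -0.27, with 3 ratios above 0 and 5 below. Among 9 phosphatases and PIAS proteins that limit JAK-STAT signaling, 0 were called and the median was -0.03. The most abundant of these, the phosphatases Ptpn6 and Ptprc, stood at 211 and 264 FPKM and at 105 and 121 FPKM, followed by Ptpn1 at 31.7 and 28.5 FPKM.

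Il4 itself, on chromosome 11 from 53602982 to 53618669, was read 34 times in the PBS library and 10 times in the SJMHE1 library. This corresponds to 0.49 and 0.13 FPKM, and the intervals of 0.34 to 0.68 and 0.06 to 0.24 FPKM did not overlap. The log2 ratio of -1.91 had an interval from -3.10 to -0.86, which included the threshold. Kif3a and Rad50, which lie within 100 kb of Il4, stood at 1.5 and 1.22 FPKM and at 9.81 and 11.8 FPKM, and Sept8, also within this distance, stood at 0.97 and 1.8 FPKM (325 and 637 counts). Il13, which lies between Il4 and Rad50, was not analysed here. Of 14 type 2 and related cytokines, 7 were measured and 1 entered the comparison. This was Il10, an anti-inflammatory cytokine that B cells also make, with 129 counts (1.78 FPKM) and 92 counts (1.20 FPKM) and a log2 ratio of -0.57. Il21 had 33 counts in the PBS library and 0 counts in the SJMHE1 library. With 3 counts in place of the 0 and the PBS count taken as exact, it was 11.7-fold lower. Il5 had 7 counts and 0 counts, 2.48-fold lower in the same way. The error of the PBS count is left out of both values. For Il5 the PBS level of 0.08 FPKM had an interval from 0.03 to 0.16 FPKM, so no least difference is given. Il33 had 44 and 27 counts, and Tslp had 0 counts in both. The other 7 cytokines of the list, Il13 among them, were not analysed here.

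Il4i1 encodes a secreted amino acid oxidase that is induced by IL-4 in B cells. It lies on chromosome 7 from 44816387 to 44840804. It was present at 8.77 FPKM (1966 counts) in the PBS library and at 11.5 FPKM (2718 counts) in the SJMHE1 library, the highest log2 ratio of the 10 genes at 0.39, with an interval from 0.30 to 0.47. Its level is uncertain. In GENCODE M21, 83.9% of the exon bases of Il4i1 also lie in exons of Tbc1d17 on the opposite strand, and it is not stated whether the counting used strand. Tbc1d17 stood at 18.2 FPKM in the PBS library and 18.0 FPKM in the SJMHE1 library, with a log2 ratio of -0.02. Il4i1 also shares 2.38% of its exon bases with Nup62 and 2.01% with Atf5. Il4ra shares 9.51% of its exon bases with the antisense gene Gm44876, which had 7 and 3 counts, and Stat6 shares 0.909% with Nab2. Il2rg shares 30.5% with Gm20489 on the same strand, a gene not analysed here. The other 6 genes share no exon base with a gene annotated there.

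Among genes that IL-4 is known to raise in B cells, those called were lower in the SJMHE1 library. Of the 14 genes of this list, 12 were compared, 5 were called lower and 0 higher, beside 3.57% and 2.43% of all genes compared. The list was chosen with earlier results of these data known. The median log2 ratio over all 14 genes was -0.82, with 10 ratios below 0 and 4 above. This median includes Ccl22 and Cish, which were under 1 FPKM in both libraries and were not compared. The median of -0.01 over all genes compared leaves such genes out, so the 2 medians are not alike. Socs1, Ighe, Ighg1 and Nfil3 were among those called lower. Of these, Socs1 reached 1 FPKM only in the PBS library, so it could be called only lower. Ighe, the constant region of IgE, stood at 5.13 FPKM (447 counts) and 1.54 FPKM (142 counts), a log2 ratio of -1.74 (interval -2.02 to -1.46.) Ighg1, the constant region of IgG1, stood at 136 and 45.7 FPKM, a log2 ratio of -1.57. The transcription factor Nfil3 stood at 4.84 and 2.05 FPKM. The log2 ratios of Fcer2a and Il4ra lay at -0.01 and 0.01, that of the class II gene H2-Aa at 0.01 (384 and 388 FPKM) and that of H2-Ab1 at 0.09 (556 and 591 FPKM).

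The remaining lists of the pathway are given by their counts, and the plot of pathway genes shows each gene. Of 8 genes for chains of the receptors that use the common gamma chain, Il2rg itself included, 6 were compared and 2 were called lower. These were Il7r, the IL-7 receptor that naive T cells carry, at 2.57 and 0.41 FPKM, and Il2rb at 4.68 and 1.71 FPKM, while 5 of the 8 had a ratio above 0. Of the 4 IL-4 and IL-13 receptor chains, 0 were called. Among 5 receptors for alarmins and IL-25, 0 of 3 compared were called, and Crlf2, the receptor chain for TSLP, stood at 29.9 and 26.8 FPKM, Il17ra at 19.9 and 18.3 FPKM and Il1rap at 1.37 and 1.30 FPKM. Of the 5 receptors and binding proteins for IgE, 0 of 3 compared were called, with the high-affinity receptor chain Ms4a2 at 0.42 and 0.07 FPKM, its shared chain Fcer1g at 5.35 and 5.05 FPKM and Lgals3 at 14.5 and 8.83 FPKM. Among 7 adaptors of IL-4 signaling, Gab2 was called lower (1.37 and 0.68 FPKM), and the most abundant were Grb2 with 94.93 and 89.96 FPKM, Pik3cd with 51.4 and 44.1 FPKM and Irs2 with 51.2 and 29.5 FPKM. Of 7 regulators of type 2 T helper cells, 1 was called lower (Nfil3), and the most abundant were Irf4 with 137 and 106 FPKM, Bhlhe41 with 6.84 and 3.96 FPKM and Batf with 6.16 and 6.14 FPKM. Of the 6 measured genes of amino acid oxidation and tryptophan catabolism, 0 of 2 compared were called, Ahr stood at 1.23 and 0.94 FPKM and Tdo2 at 0.54 and 0.61 FPKM, and Ido2 had 0 counts in both libraries. Over all lists, 9 of the 65 genes compared were called lower and 0 higher, beside 3.57% and 2.43% of all genes compared. Of these 9 genes, Il7r, Socs1 and Gab2 reached 1 FPKM only in the PBS library, so they could be called only lower. A filter on both libraries was not run for the lists.

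**Figure D3:**
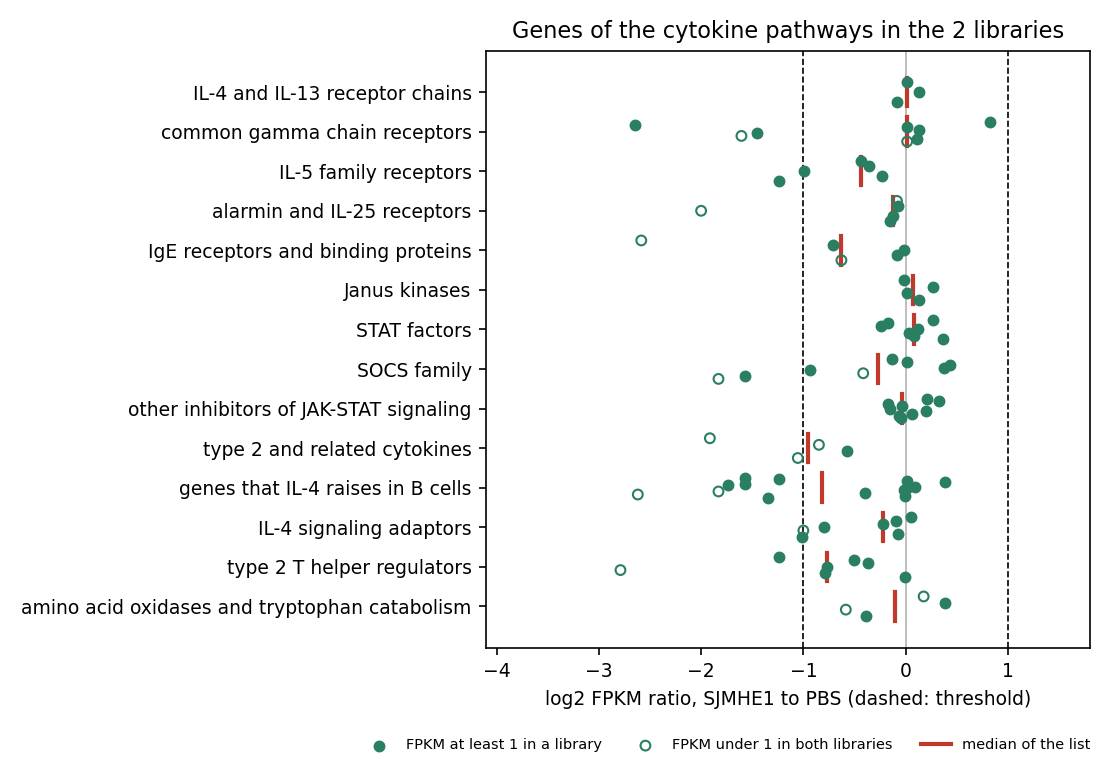
Log2 FPKM ratio, SJMHE1 to PBS, of each gene in 14 lists of cytokine pathway genes, with filled points for genes at 1 FPKM or more in a library, open points for genes under it in both and red bars for the median of each list. The Janus kinases and STAT factors lie around 0, while the genes that IL-4 raises in B cells spread from -2.62 to 0.39.

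B cell markers were at about the same level in both libraries, and markers of some other cells were lower in the SJMHE1 library. The 8 B cell markers summed to 2698 FPKM in the PBS library and 2771 FPKM in the SJMHE1 library, with 0 called and a median log2 ratio of 0.01. Of 9 T cell markers, 8 were compared and 7 were called lower, beside 3.57% of all genes compared, and the median was -2.06. Of those called, Cd3d, Cd3e, Cd8a and Cd8b1 reached 1 FPKM only in the PBS library, so they could be called only lower. The 9 markers summed to 52.9 and 31.4 FPKM, of which Lck, at 27.9 and 25.2 FPKM, was the largest part. Cd3e, which every T cell carries, stood at 1.77 and 0.39 FPKM, and none of the 9 markers was at 0. Il4, Il21, Il7r, Il2ra and Gata3 are genes that T cells also express, with Il2ra at 0.70 and 0.23 FPKM and Gata3 at 0.76 and 0.11 FPKM. In such bulk libraries, fewer cells of a type and less RNA per cell cannot be told apart. The part of the T cell RNA in the lower Il4, Socs1, Socs3 and Cish was not tested.

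Basophils and mast cells, which carry the high-affinity IgE receptor and make IL-4, were represented by 9 markers that summed to 5.88 and 3.07 FPKM. Of these, 2 were compared and 1 was called lower, the protease Cpa3 with 173 and 25 counts. The other was Hdc, which makes histamine, with 433 and 514 counts (log2 ratio 0.17). Kit had 285 and 316 counts, the basophil protease Mcpt8 had 33 and 14 counts and Tpsb2 had 0 in both. In all, 2 ratios were above 0 and 6 below. The 6 eosinophil markers summed to 9.43 and 11.7 FPKM, with 0 of 2 compared called 3 ratios above 0 and 3 below, Epx standing at 0.36 and 0.88 FPKM and Siglecf at 0.28 and 0.02 FPKM. The 6 plasma cell markers summed to 559 and 459 FPKM, with 1 called lower (Tnfrsf17) and a median of -0.34. The 5 NK cell markers (10.97 and 5.65 FPKM) had 2 of 3 called lower, and the 6 dendritic cell markers (7.83 and 3.78 FPKM) had 2 of 3 called lower. Of the 8 macrophage markers (106 and 56.0 FPKM), 2 were called higher and 1 lower, the lower one being the abundant Lyz2 at 88.8 and 37.4 FPKM. Lyz2 was the largest part of both sums, and the median log2 ratio of the 8 was 0.30, with 5 ratios above 0 and 3 below. The 6 neutrophil markers summed to 384 and 474 FPKM, with 0 called. The part of these cells in the levels of Il4, Il5ra and the SOCS genes was not tested. Of all genes compared, 3.57% were called lower and 2.43% higher. Among the markers called in these lists, Cpa3, Tnfrsf17, Ncr1 and Siglech reached 1 FPKM only in the PBS library. C1qc, called higher, reached it only in the SJMHE1 library. Through the filter, these 5 genes could be called in 1 direction only.

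**Figure D4:**
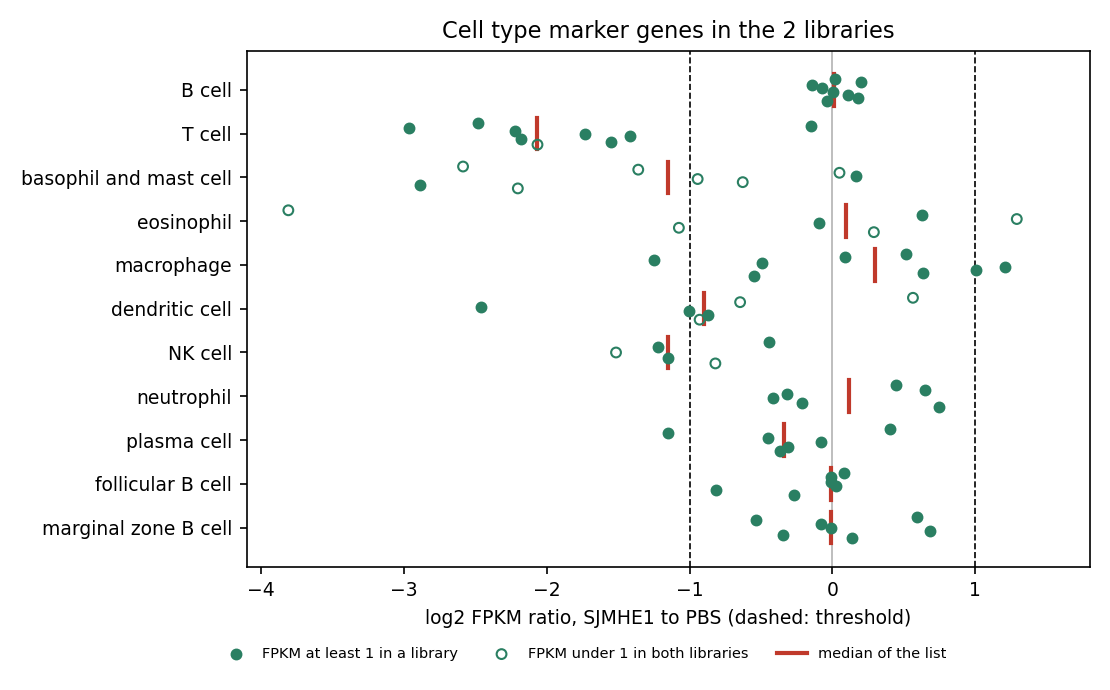
Log2 FPKM ratio, SJMHE1 to PBS, of each marker gene of 11 cell types and B cell subsets, with filled points for genes at 1 FPKM or more in a library, open points for genes under it in both and red bars for the median of each list. The B cell markers lie around 0 and the T cell markers around a median of -2.06.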

How the data were processed

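RNA of splenic B cells was sequenced in 3 samples, 1 per group, each mixed from 3 samples of that group before sequencing. The authors deposited 1 table of 27088 genes with coordinates, whole-number counts that are not normalized and FPKM values rounded to 2 decimals. The submitters' processing notes name the build mm10 and bcl2fastq 2.0, HISAT2, StringTie, DESeq2 and limma, and the use of strand is not given in the sources used here. Besides these, 2 columns carry a name that fits none of the samples. They were not used, so comparisons with the Control group were not made. Depth was 48267168 and 51280237 counts.

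The log2 FPKM ratio, SJMHE1 to PBS, was taken without a pseudocount, and no test across genes was made, since each group had 1 library. Count-based scalings used edgeR 4.0.16 (TMM) and DESeq2 1.42.0 (size factors) in R 4.3.3. Ratios and exact intervals were computed in Python 3.11.15 with numpy 2.4.6, pandas 2.3.3 and scipy 1.17.1 and were tested on simulated data. The genes and the 25 lists were chosen with earlier results of these data known. In each pathway list, genes past the threshold, the 3 most abundant in the PBS library and those with 0 counts in both were named, as were neighbors of the 10 genes and markers, and further genes were named after their values were seen. Some genes that this rule names are not reported here. Alternatives were pseudocounts, scalings, centring, filters and thresholds. GENCODE M21 gave exons and RefSeq (GRCm38.p6) the start sites.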

Additional observations from a re-analysis of the deposited data

How the results depend on the processing

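No paired analysis was possible because no group holds more than 1 library. The number of the 10 genes past the threshold was 1 (Socs1), and it was 0 with a pseudocount of 1 FPKM, 0 if both libraries had to reach 1 FPKM, 2 without a filter (Il4 and Socs1) and 2 with a log2 threshold of 0.58 (Socs1 and Socs3). Over all genes, 1.98%, 2.22%, 16.57% and 13.75% were past the threshold in these settings. By construction, a pseudocount draws low genes toward 0 and a stricter filter leaves them out. Under the other 8 alternatives the number was 1. The median log2 ratio over the genes, 6.9e-05, was 0.083 with FPKM rescaled to the same sum in each library, 0.045 with DESeq2 size factors and 0.060 over the 8 genes that reached 1 FPKM in both. The rescaling adds 0.083 to every ratio, and no scaling moved the median of all genes by more than that. Of 70 values of single genes under the alternatives, 58 stayed within their counting interval, and of the genes only Fcer2a changed sign under a scaling. Il4 moved to -0.40 and Socs1 to -0.65 with a pseudocount of 1 FPKM. The number of pathway genes past the threshold was 9 and lay between 6 and 10, with 0 higher under each of the 7 alternatives. The alternatives for comparisons with the Control group were not run. Depth limits Il4 (34 and 10 counts) and Socs1 (191 and 70 counts).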

Other observations

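The following genes were chosen after their values were seen. Il9r, the receptor for IL-9, had the highest ratio of the pathway genes, with 6812 counts (25.1 FPKM) in the PBS library and 12796 counts (44.5 FPKM) in the SJMHE1 library. Its log2 ratio of 0.83 (interval 0.79 to 0.87) was short of the threshold, and Il9 was not analysed here. Ccl22, a chemokine that attracts T helper cells and that IL-4 raises, had 56 and 10 counts, with a log2 ratio of -2.62 (interval -3.76 to -1.63). Cd86, a costimulatory ligand that IL-4 raises on B cells, stood at 10.0 and 7.61 FPKM, with a log2 ratio of -0.40.

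In the KEGG annotation of the table, 8 of the 10 genes carry JAK-STAT signaling, all but Fcer2a and Il4i1, and 5 carry cytokine-cytokine receptor interaction. Genes within 100 kb of Socs1 and Socs3 differed in direction. Near Socs1, Clec16a stood at 4.83 and 5.08 FPKM and Rmi2 at 0.49 and 0.37 FPKM (122 and 98 counts). Near Socs3, Pgs1 stood at 7.09 and 7.55 FPKM, whereas Dnah17 (220 and 116 counts, log2 ratio -1.06), Tha1 (143 and 102 counts, log2 ratio -0.57) and the antisense gene Gm11725 (16 and 0 counts) were lower in the SJMHE1 library. Dnah17, Tha1, Rmi2 and Gm11725 were under 1 FPKM in both libraries.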
